A study of Mus musculus with 14 samples.

Results

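The genes described here were the cytokines IL-1, IL-6 and TNF that act in inflammatory arthritis, with the receptors and antagonists that receive or block them: Il1a, Il1b, Il1rn, Il1r2, Il6, Il6ra, Il6st, Tnf, Tnfrsf1a and Tnfrsf1b. They were chosen by name, and every array probe whose transcript accession maps to one of these symbols in RefSeq was taken, which gave 18 of the 56605 probes on the array. Of the 10 genes, 9 were bright enough to be tested, among 24908 genes tested in all. Il1a was not, and it is described by its values alone. RNA of splenocytes was measured in 7 WT and 7 Sting gt/gt mice, with 1 one-colour Agilent array per mouse. The WT mice were C57BL/6. The Sting gt/gt mice carried the golden ticket allele (Tmem173gt), a chemically induced point mutation made on a C57BL/6 background that leaves STING protein undetectable. The age given for mice of both groups was 10 to 14 weeks, which the paper states as the age at immunization. All had received chicken collagen type II in complete Freund's adjuvant (CFA + CII) 2 weeks before the spleen was taken. No unimmunized spleen therefore enters any comparison. The WT mice were bought from an animal centre and the Sting gt/gt mice came from another laboratory, so colony and genotype cannot be told apart, and red blood cells were lysed in the study's splenocyte preparation.

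IL-1α and IL-1β share a signalling receptor, which the antagonist IL-1RN occupies without signalling and which the decoy receptor IL1R2 deprives of its ligand. IL-6 binds IL6RA and then the shared signal transducer gp130, encoded by Il6st, whereas TNF binds TNFR1, encoded by Tnfrsf1a and present on most cells, and TNFR2, encoded by Tnfrsf1b and found mainly on leukocytes and endothelium. In the spleen, myeloid cells are the main source of IL-1β, and blocking TNF or the IL-6 receptor is an established treatment of arthritis.

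Transcription of the ligand and receptor genes is controlled in part close to their start sites. The windows of Tnf, Tnfrsf1b and Il6 are shown because the genotype difference of Tnf and Tnfrsf1b depended on the replicates read and because Il6 was detected in one set of replicates far more often than in the other. Each holds the 250 bases before the gene's start, written 5′ to 3′ on the gene's strand from RefSeq on the mouse build GRCm38.p6. Tnf lies on the minus strand (chr17:35202008-35202257), Tnfrsf1b on the minus strand (chr4:145246871-145247120) and Il6 on the plus strand (chr5:30012864-30013113). Capitals mark letters that match GGGANNNNCC (κB-like), TGANTCA (AP-1-like) or TTCNNNGAA (STAT-like) on either strand, or TATAAA on the gene's strand.
Tnf: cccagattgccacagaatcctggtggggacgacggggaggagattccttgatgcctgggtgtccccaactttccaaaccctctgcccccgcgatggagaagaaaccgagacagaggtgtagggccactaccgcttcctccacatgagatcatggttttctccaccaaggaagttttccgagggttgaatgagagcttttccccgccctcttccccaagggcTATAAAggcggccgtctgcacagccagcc
Tnfrsf1b: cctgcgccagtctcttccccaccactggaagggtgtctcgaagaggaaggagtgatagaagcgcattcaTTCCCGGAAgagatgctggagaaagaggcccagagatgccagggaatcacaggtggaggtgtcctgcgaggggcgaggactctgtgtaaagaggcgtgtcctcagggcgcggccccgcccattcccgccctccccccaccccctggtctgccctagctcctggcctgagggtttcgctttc
Il6: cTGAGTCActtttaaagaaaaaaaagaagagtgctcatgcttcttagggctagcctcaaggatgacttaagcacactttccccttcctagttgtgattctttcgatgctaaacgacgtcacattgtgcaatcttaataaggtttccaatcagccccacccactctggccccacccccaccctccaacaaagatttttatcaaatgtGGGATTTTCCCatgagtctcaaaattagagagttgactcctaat
The Tnf window held TATAAA at bases -29 to -24 from the start and none of the other letters searched. The Tnfrsf1b window held TTCCCGGAA at -181 to -173. The Il6 window held GGGATTTTCC at -44 to -35, which overlaps a match on the other strand, and TGAGTCA at -249 to -243. TATAAA also stood in the windows of Il1a and Il1b, and GGGANNNNCC in those of Il1rn and Il6ra. TGANTCA stood in those of Il1a and Il1rn, and TTCNNNGAA in those of Il1r2 and Tnfrsf1a. For Il1rn both matches were in the same window, and its other windows held none of the letters searched. Of 32851 promoter windows of the same length, 17.6% held GGGANNNNCC, 6.75% TGANTCA, 7.02% TTCNNNGAA and 7.59% TATAAA. These matches describe letters and were not tested as binding sites, and bases farther from the start were not searched.

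Values are given as log2 of the background-corrected signal after the 75th percentile of each array was set to 0, so a value of one probe can be compared between arrays but not with the value of another probe. Between 30781 and 34400 probes per array were well above background, and arrays correlated with each other at 0.962 to 0.993 across genes. The file headers give replicates 1 to 3 of both genotypes a different scan day from replicates 4 to 7, and 9659 genes (38.8%) differed between these replicate sets at an adjusted p under 0.05 by limma with genotype in the model. Within replicates 4 to 7, all 4 Sting gt/gt arrays were on 1 slide and the 4 WT arrays on 2 others, so slide and genotype cannot be told apart there. The targeted gene, Sting1, ranged from 2.35 to 2.85 in WT and from 2.45 to 2.77 in Sting gt/gt. Its transcript differed by 0.04 (SE 0.10), and a probe of this kind does not read the point mutation. Markers of neutrophils, macrophages, dendritic cells, B, plasma, T and NK cells, erythroid cells, platelets, stroma and basophils were detected on all 14 arrays, except that Ly6g was not among the tested genes. In such bulk samples, fewer cells of a type and less RNA per cell cannot be told apart.

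None of the 9 genes tested passed the test of Sting gt/gt against WT over all 14 arrays, and 8 of the 9 had a higher mean in Sting gt/gt. The background for the first count was 3.48% of all genes tested under an unadjusted p of 0.05, and for the other 54.5% of all genes above 0. The median difference over the 9 genes was 0.09, and over all genes 0.02.

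Among the ligands, Il1b was well above background on every array. Its signal in WT had a lowest value of 0.90, a median of 1.77 and a highest of 2.75, against 1.24, 2.05 and 2.51 in Sting gt/gt. Both extremes came from WT mice of replicates 1 to 3, with replicate 2 highest and replicate 3 lowest, so the groups overlapped over almost their whole range. The difference, Sting gt/gt minus WT, was 0.23 (SE 0.24, 95% interval -0.29 to 0.74; limma, unadjusted p = 0.363). A further Il1b probe gave 0.20 (SE 0.32). Leaving out WT replicate 3 brought the difference to 0.09, and leaving out WT replicate 2 to 0.40, neither past the threshold.

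Il1rn, the receptor antagonist, lay at -2.36, -1.81 and -1.22 in WT (lowest, median and highest) and at -1.9997, -1.41 and -1.18 in Sting gt/gt. The upper ends of the groups were alike and the overlap was wide. The difference was 0.24 (SE 0.17, 95% interval -0.13 to 0.61; limma, unadjusted p = 0.188). A further Il1rn probe was well above background on 1 of the 14 arrays, WT replicate 7.

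Il1a was well above background on 4 of 7 WT arrays and on 1 of 7 Sting gt/gt arrays. Its WT values ran from -6.13 through a median of -4.93 to -3.74, and its Sting gt/gt values from -5.95 through -5.77 to -3.52. The bright Sting gt/gt array was replicate 7, the others of that group lying between -5.95 and -5.26.

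Il6 was dim. Its brighter probe was well above background on all 8 arrays of replicates 4 to 7 but on only 1 of the 6 arrays of replicates 1 to 3, and its further probe on none of the 14. The brighter probe ranged from -5.84 through a median of -4.72 to -4.05 in WT and from -6.27 through -4.35 to -3.88 in Sting gt/gt. The groups overlapped throughout, and the difference of 0.05 (SE 0.38, 95% interval -0.76 to 0.85; limma, unadjusted p = 0.901) rested in part on arrays where the spot was not well above background.

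Tnf lay at -2.64, -1.81 and -0.93 in WT and at -2.04, -1.70 and -1.28 in Sting gt/gt (lowest, median and highest). WT held both the lowest and the highest arrays. The difference was 0.25 (SE 0.24, 95% interval -0.26 to 0.75; limma, unadjusted p = 0.316), and the exact permutation test over 3432 splits gave p = 0.354. A further Tnf probe gave a like difference, 0.22 (SE 0.13).

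**Figure D1:**
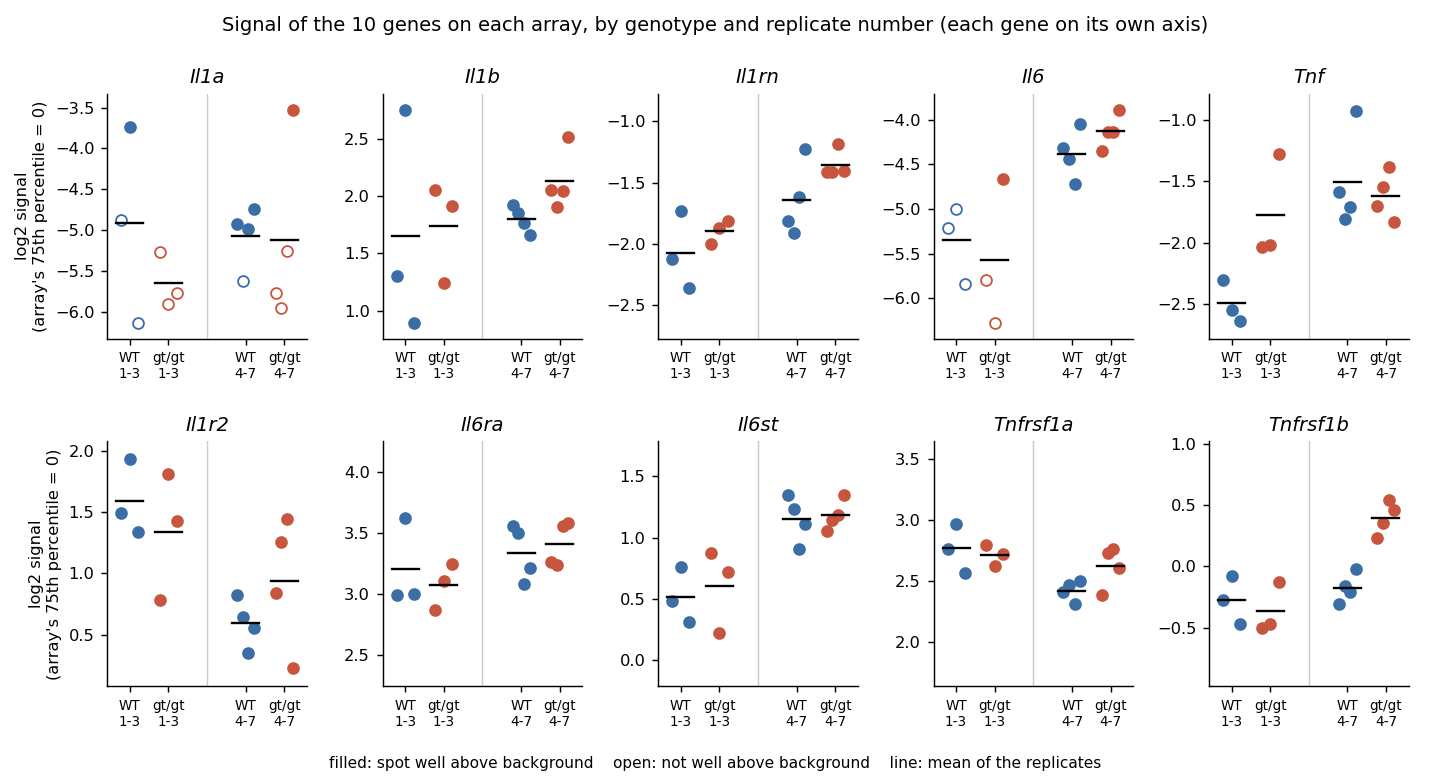
log2 signal of the brightest probe of each of the 10 genes on 14 arrays (vertical axis, array's 75th percentile set to 0; each gene on its own axis), with WT in blue and Sting gt/gt in red, replicates 1 to 3 left and replicates 4 to 7 right of the grey line. Filled points were well above background, open points were not, and horizontal lines are means; Tnfrsf1b separates the genotypes in replicates 4 to 7 and Tnf in replicates 1 to 3, while Il6 is open on 5 of the 6 arrays of replicates 1 to 3.

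The receptors were well above background on every array. Il1r2, the decoy receptor, ran from 0.35 through a median of 0.82 to 1.93 in WT and from 0.23 through 1.25 to 1.81 in Sting gt/gt. It had the widest spread among the receptors, and the difference of 0.09 (SE 0.27, 95% interval -0.49 to 0.67; limma, unadjusted p = 0.740) was small beside it. A further Il1r2 probe gave 0.19 (SE 0.19).

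Il6ra, the ligand-binding chain of the IL-6 receptor, ran from 2.99 through 3.21 to 3.62 in WT and from 2.87 through 3.24 to 3.58 in Sting gt/gt. The medians nearly coincided, with a difference of -0.01 (SE 0.14, 95% interval -0.31 to 0.28; limma, unadjusted p = 0.917). Il6st, which encodes gp130, ran from 0.31 through 0.91 to 1.35 in WT and from 0.22 through 1.06 to 1.35 in Sting gt/gt. Its difference was 0.06 (SE 0.19, 95% interval -0.36 to 0.47; limma, unadjusted p = 0.771). For the brighter probes of both chains, the 95% intervals allow a difference of at most 0.47 in either direction. The further probe of Il6ra gave 0.13 (SE 0.17, 95% interval -0.24 to 0.50) and that of Il6st -0.012 (SE 0.17).

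Tnfrsf1a, the gene of TNFR1, lay in the narrowest band of the 9 genes, from 2.31 through 2.50 to 2.97 in WT and from 2.39 through 2.73 to 2.79 in Sting gt/gt. Its difference was 0.09 (SE 0.11, 95% interval -0.15 to 0.33; limma, unadjusted p = 0.432), and a further probe gave 0.25 (SE 0.16). Tnfrsf1b, the gene of TNFR2, ran from -0.47 through -0.21 to -0.02 in WT and from -0.50 through 0.23 to 0.54 in Sting gt/gt. Its difference was the largest of the 9, 0.29 (SE 0.17, 95% interval -0.07 to 0.64; limma, unadjusted p = 0.111). The spread of Tnfrsf1b in Sting gt/gt (SD 0.44) was wider than in WT (SD 0.15), with 3 of its Sting gt/gt arrays in or below the WT range and the 4 of replicates 4 to 7 above it.

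**Figure D2:**
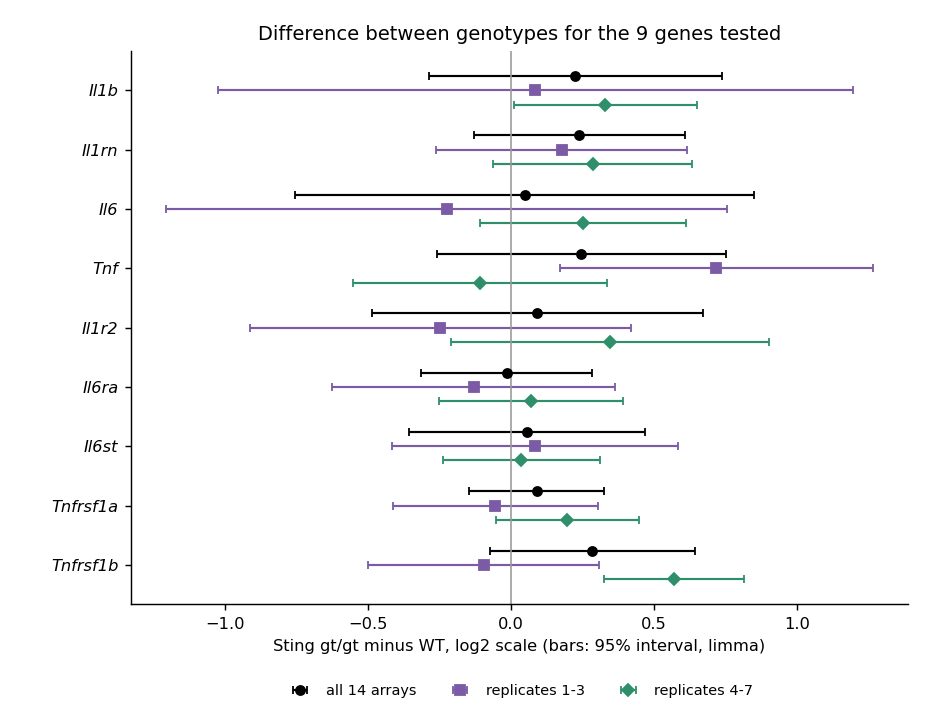
Sting gt/gt minus WT on the log2 scale (horizontal axis) for the 9 genes tested, over all 14 arrays (black circles), in replicates 1 to 3 (purple squares) and in replicates 4 to 7 (green diamonds), with 95% intervals by limma (Il6 was well above background on only 1 of the 6 arrays of replicates 1 to 3). All black intervals include 0, whereas the interval of Tnf in replicates 1 to 3 (0.17 to 1.27) and those of Il1b and Tnfrsf1b in replicates 4 to 7 do not.

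The replicate sets were then read apart. In replicates 1 to 3, Tnf rose in Sting gt/gt and no other of the 9 genes passed the test (1 of 9, against a background of 3.86%). Tnf lay at -2.30, -2.55 and -2.64 in WT replicates 1, 2 and 3 and at -2.04, -2.02 and -1.28 in the Sting gt/gt replicates 1, 2 and 3. Every Sting gt/gt array was above every WT array. This held for 9.23% of all genes in either direction and for 5.98% with Sting gt/gt higher. Sting gt/gt replicate 3, the highest, was on a slide with no WT array. The difference was 0.72 (SE 0.23; limma, unadjusted p = 0.017, adjusted p = 0.9997), and the exact permutation test gave p = 0.1, the smallest that 3 against 3 allows. It was 0.47 without Sting gt/gt replicate 3 (unadjusted p = 0.030) and 0.65 without WT replicate 3, where it no longer passed (unadjusted p = 0.054). The further Tnf probe gave 0.43 (SE 0.19, unadjusted p = 0.054), with Sting gt/gt replicate 1 at -2.52 just under WT replicate 1 at -2.50.

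In replicates 4 to 7 Tnf did not pass the test. WT replicates 4 to 7 gave -1.58, -1.81, -1.71 and -0.93, and the Sting gt/gt replicates -1.70, -1.55, -1.38 and -1.83. The difference was -0.11 (SE 0.20), and it differed from that in replicates 1 to 3 by -0.83 (95% interval -1.52 to -0.14; limma interaction, unadjusted p = 0.023, adjusted p = 0.199; exact permutation within sets, p = 0.054). The highest Tnf array in replicates 1 to 3 was Sting gt/gt replicate 3 and in replicates 4 to 7 WT replicate 7. In both sets these were also the arrays with the highest mean of the 8 B cell markers (2.69 and 2.89) and with the most probes well above background (33620 and 34400). The B cell markers lay at 1.92 to 2.32 in WT and 2.21 to 2.69 in Sting gt/gt in replicates 1 to 3, and at 2.36 to 2.89 in WT and 1.99 to 2.31 in Sting gt/gt in replicates 4 to 7. Their part in the Tnf values was not tested.

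In replicates 4 to 7, 2 of the 9 genes, Il1b and Tnfrsf1b, were higher in Sting gt/gt under an unadjusted p of 0.05, where the background was 23.3% of all genes, so their share was near that of the genes at large. At an adjusted p under 0.05, 1 of 9 passed against a background of 1.69%. That gene was Tnfrsf1b, at -0.31, -0.16, -0.21 and -0.02 in WT replicates 4 to 7 and at 0.23, 0.35, 0.54 and 0.46 in the Sting gt/gt replicates. No further probe mapped to Tnfrsf1b, so its values could not be compared with those of another probe. The genotypes did not overlap, which held for 14.7% of all genes and for 7.31% with Sting gt/gt higher. The difference was 0.57 (SE 0.11, 95% interval 0.33 to 0.82; limma, unadjusted p = 0.000505, adjusted p = 0.047; exact permutation, p = 0.029, the smallest that 4 against 4 allows). With each array left out in turn it lay between 0.52 and 0.63 and passed the unadjusted threshold each time, with adjusted p from 0.039 to 0.133. Of these 8 fits, those that left out replicate 4 or replicate 7 of Sting gt/gt had an adjusted p under 0.05 (0.049 and 0.039) and the other 6 did not.

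In replicates 1 to 3 Tnfrsf1b lay at -0.27, -0.07 and -0.47 in WT and at -0.50, -0.47 and -0.13 in Sting gt/gt. The genotypes overlapped there and the difference was -0.10 (SE 0.17). Between the sets the genotype difference of Tnfrsf1b changed by 0.67 (95% interval 0.26 to 1.07; limma interaction, unadjusted p = 0.0034, adjusted p = 0.093; exact permutation within sets, p = 0.013). Over all genes, 18% changed between sets at an unadjusted p under 0.05 and 0.767% at an adjusted p under 0.05. Of the 11 marker lists, 4 had levels that did not overlap between the genotypes in replicates 4 to 7, namely the B cell markers given above and plasma cell, stromal and endothelial, and erythroid markers. The mean of the 7 plasma cell markers lay at 1.13 to 1.47 in WT and 1.51 to 1.93 in Sting gt/gt, that of the 8 stromal and endothelial markers at 1.11 to 1.25 and 1.29 to 1.72, and that of the 8 erythroid markers ran the other way, with a lowest WT array at 5.30 and a highest Sting gt/gt array at 5.29. Not every gene moved with the mean of its list. Of the plasma cell markers, Sdc1 (0.84), Tnfrsf17 (0.76), Jchain (0.58) and Xbp1 (0.30) were higher in Sting gt/gt. Mzb1 differed by 0.08, and Prdm1 (-0.28) and Irf4 (-0.16) were lower. Of the erythroid markers, Hbb-bt (0.09) and Hba-a1 (0.02) were not lower, and the others were. Whether the cells of these lists have a part in the Tnfrsf1b values was not tested.

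Il1b in replicates 4 to 7 lay at 1.92, 1.85, 1.77 and 1.66 in WT and at 2.05, 1.91, 2.05 and 2.51 in Sting gt/gt. The lowest Sting gt/gt array fell below the highest WT array. The difference was 0.33 (SE 0.14; limma, unadjusted p = 0.044, adjusted p = 0.202; exact permutation, p = 0.057), and it missed the threshold without any of 6 of the 8 arrays, being 0.20 without Sting gt/gt replicate 7. The further Il1b probe gave -0.0046 (SE 0.12). Il1rn (0.29, SE 0.15), Il6 (0.25, SE 0.16), Il1r2 (0.35, SE 0.25) and Tnfrsf1a (0.20, SE 0.11) did not pass the test in this set. In replicates 1 to 3, Il6 was well above background on none of the 3 WT arrays and 1 of the 3 Sting gt/gt arrays, so the difference fitted there (-0.22, SE 0.42) was not measured on both sides.

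With genotype in the model, 6 of 9 genes differed between the replicate sets at an adjusted p under 0.05 by limma, against 38.8% of all genes. Il6st was 0.60 higher in replicates 4 to 7 (SE 0.12, adjusted p = 0.000899), Tnf 0.58 (SE 0.19, adjusted p = 0.027), Il1rn 0.49 (SE 0.12, adjusted p = 0.0056) and Tnfrsf1b 0.43 (SE 0.13, adjusted p = 0.016). Il1r2 was lower, by -0.70 (SE 0.21, adjusted p = 0.017), but missed the threshold with median centring (-0.54, adjusted p = 0.060). Il6 gave 1.21 (SE 0.22, adjusted p = 0.000733), with only 1 of the 6 arrays of replicates 1 to 3 well above background, so the size of that difference was not measured on both sides. Il6st did not overlap between the sets, running from 0.22 to 0.87 in replicates 1 to 3 and from 0.91 to 1.35 in replicates 4 to 7, as for 15.7% of all genes.

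Further probes of the same transcripts did not always share these shifts. The further Il6st probe gave -0.29 for replicates 4 to 7 minus replicates 1 to 3 (SE 0.15), where the brighter one was higher in replicates 4 to 7. The further Il1r2 probe gave 0.17 (SE 0.19) against -0.70, and the further Tnf probe 0.13 (SE 0.12) against 0.58. For Tnfrsf1a the brighter probe gave -0.22 (SE 0.09, adjusted p = 0.073) and the further one 0.35 (SE 0.13, adjusted p = 0.046). The estimates of the set difference thus had opposite signs on the probe pairs of Il6st, Il1r2 and Tnfrsf1a.

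**Figure D3:**
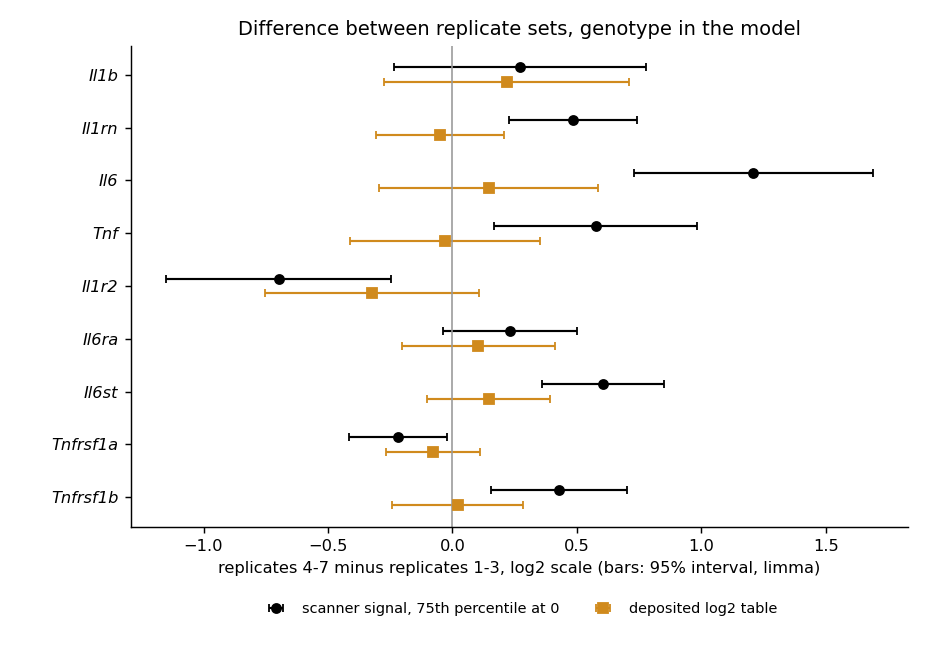
Replicates 4 to 7 minus replicates 1 to 3 on the log2 scale (horizontal axis) for the 9 genes tested, from the scanner signal (black circles) and from the deposited log2 table (orange squares), with 95% intervals by limma and genotype in the model. Il6st is 0.60 higher in replicates 4 to 7 in the scanner signal and 0.15 in the deposited table, where every interval includes 0; Il6 (1.21) was well above background on only 1 of the 6 arrays of replicates 1 to 3.

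The deposited table of log2 values held almost none of these shifts. None of the 9 genes, and none of all 24908, differed between the sets in it at an adjusted p under 0.05 by limma (1.4% at an unadjusted p under 0.05), and the median size of the difference between sets was 0.07 over all genes against 0.27 in the scanner signal. Il6 differed by 0.15, Il6st by 0.15, Tnf by -0.03, Il1rn by -0.05, Tnfrsf1b by 0.02 and Il1r2 by -0.32. There, 2 of the 9 genes passed the unadjusted threshold, both higher in Sting gt/gt, against a background of 7.74%. These were Il1rn (0.26, SE 0.11, 95% interval 0.01 to 0.50, unadjusted p = 0.039, adjusted p = 0.624) and Tnfrsf1b (0.26, SE 0.12, 95% interval 0.01 to 0.51, unadjusted p = 0.044, adjusted p = 0.632). Within the sets, this table gave 0.61 for Tnf in replicates 1 to 3 (SE 0.21) and -0.07 in replicates 4 to 7. For Tnfrsf1b it gave -0.11 and 0.53 (SE 0.10) in the same order. The split by set was thus also in this table, but both forms of the data come from the same arrays. A shift of a whole set would leave the differences within it unchanged, so this is not independent support.

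From mouse to mouse, the genes varied with different company. Correlations are given over the 14 arrays after genotype and replicate set means were removed, as a description, and several arrays share a slide. Among 36 pairs of the 9 genes, r ran from -0.21 to 0.75, with 14 pairs above 0.5 and 7 below 0. Il1b and Il6st were the most alike (r = 0.75, Spearman's rho = 0.85), followed by Tnfrsf1a and Tnfrsf1b (r = 0.73, rho = 0.76). Tnf stood apart from the receptors of its own ligand, at -0.055 with Tnfrsf1a (rho = -0.07) and -0.14 with Tnfrsf1b (rho = -0.28).

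Il1r2 followed the neutrophil markers. Over the 14 arrays its deviations correlated with those of the mean of 11 neutrophil markers at r = 0.95 (rho = 0.95), at 0.90 without the 2 arrays farthest from the median, at 0.92 in replicates 1 to 3 and 0.97 in replicates 4 to 7. The lowest arrays in both measures were Sting gt/gt replicates 1 and 7, with Il1r2 at -0.72 and -0.59 from its mean and the markers at -0.45 and -0.47. The highest were Sting gt/gt replicate 6 and WT replicate 2 for Il1r2, at 0.63 and 0.51. The genes whose pattern was most like that of Il1r2 were Slc16a3, a lactate transporter (r = 0.99), Rflnb (0.98) and Msra (0.98), a methionine sulfoxide reductase. The further Il1r2 probe followed the brighter one at 0.85. The neutrophil markers were not the only list that Il1r2 varied with. It correlated with basophil and mast cell markers at 0.82 (rho = 0.74), and at 0.96 in replicates 1 to 3. With megakaryocyte and platelet markers it correlated at 0.65, and with plasma cell markers at 0.58.

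**Figure D4:**
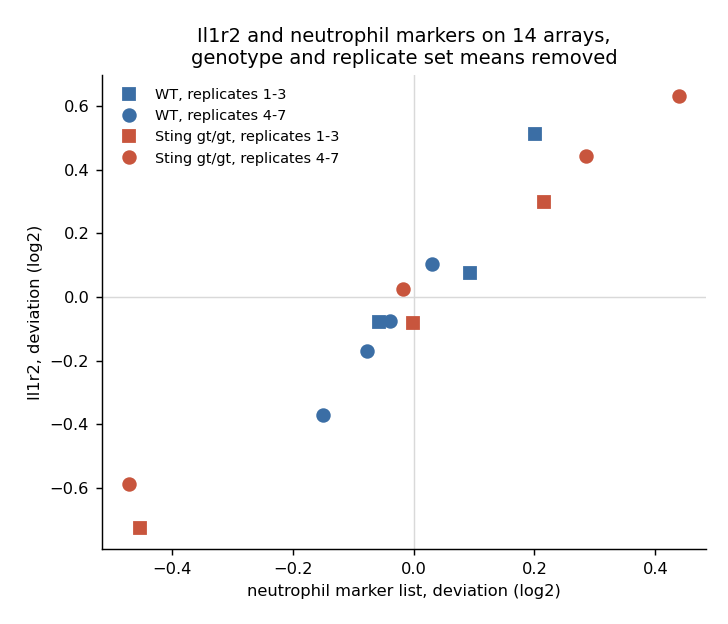
Il1r2 (vertical axis) against the mean of 11 neutrophil markers (horizontal axis), both as log2 deviations on 14 arrays after genotype and replicate set means were removed, with WT in blue, Sting gt/gt in red, replicates 1 to 3 as squares and replicates 4 to 7 as circles. The points lie along a rising line (r = 0.95), from Sting gt/gt replicates 1 and 7 at the lower left to Sting gt/gt replicate 6 at the upper right.

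Il1b correlated with the neutrophil markers at -0.22 (rho = -0.21, -0.68 without the 2 farthest arrays, -0.10 in replicates 1 to 3 and -0.62 in replicates 4 to 7), and it correlated at 0.67 with the mean of 8 dendritic cell markers (rho = 0.75, and 0.70 without the 2 farthest arrays). This was not particular to the dendritic cell markers. With the stromal and endothelial markers Il1b correlated at 0.68 (rho = 0.31, and 0.76 without the 2 farthest arrays), and with the NK cell markers at 0.46. The genes most like Il1b were Mycl, a MYC family factor expressed in dendritic cells (r = 0.95), Clec4d, a C-type lectin receptor of myeloid cells (0.94, but 0.50 within replicates 4 to 7), and Dscam (0.93). The further Il1b probe followed the brighter one at 0.77, and at 0.19 within replicates 4 to 7. Il6st correlated with the dendritic cell markers at 0.71 (rho = 0.77). It also correlated with monocyte and macrophage markers at 0.66, NK cell markers at 0.61 and stromal and endothelial markers at 0.58.

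Tnf correlated with the 8 B cell markers at 0.76 (rho = 0.60), but at 0.30 without the 2 arrays farthest from the median, so this relation rested on those arrays. With 9 factors that act on the decay of cytokine mRNAs it correlated at -0.79 (rho = -0.55), and at -0.40 without the 2 farthest arrays. Its nearest genes were Slc28a2b (r = 0.96), Ndfip2 (0.95), an adaptor of ubiquitin ligases, and Nt5m (0.93). Il6 correlated with the 8 erythroid markers at -0.77 (rho = -0.85), with 5 of its 14 values not well above background. Tnfrsf1b correlated at 0.70 with plasma cell, 0.74 with stromal and endothelial and -0.67 with erythroid markers, at 0.69 with basophil and mast cell markers, whose levels overlapped between the genotypes in replicates 4 to 7, and at -0.30 with B cell markers, whose levels did not. Its nearest genes were Glce (r = 0.95), Pfkp, a phosphofructokinase (0.95), and Slco3a1 (0.93).

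The nearest genes of Il6ra were Phlda1 (r = 0.97), Niban1 (0.97) and Ssh2 (0.96), and Il6ra correlated with 13 immediate early and stress genes at 0.83 (rho = 0.83, and 0.65 without the 2 farthest arrays). The further probe of Il6ra did not follow the brighter one (r = -0.035). The genes nearest to Il6st were Kazald1 (0.95), Arhgap31 (0.93) and Msx1 (0.92), with its further probe at 0.17, and those of Tnfrsf1a were App (0.91), Fmod (0.89) and Niban2 (0.88). The nearest genes were Gm14548 (0.88), Mical1 (0.87) and Ctif (0.86) for Il1rn and Ggct, St6gal1 and Mapkbp1 (all 0.89) for Il6. Over the 9 genes, the 3 nearest among the tested genes with a symbol lay between 0.86 and 0.99. They were picked as the highest of all those genes, and how high unrelated genes would reach was not measured.

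**Figure D5:**
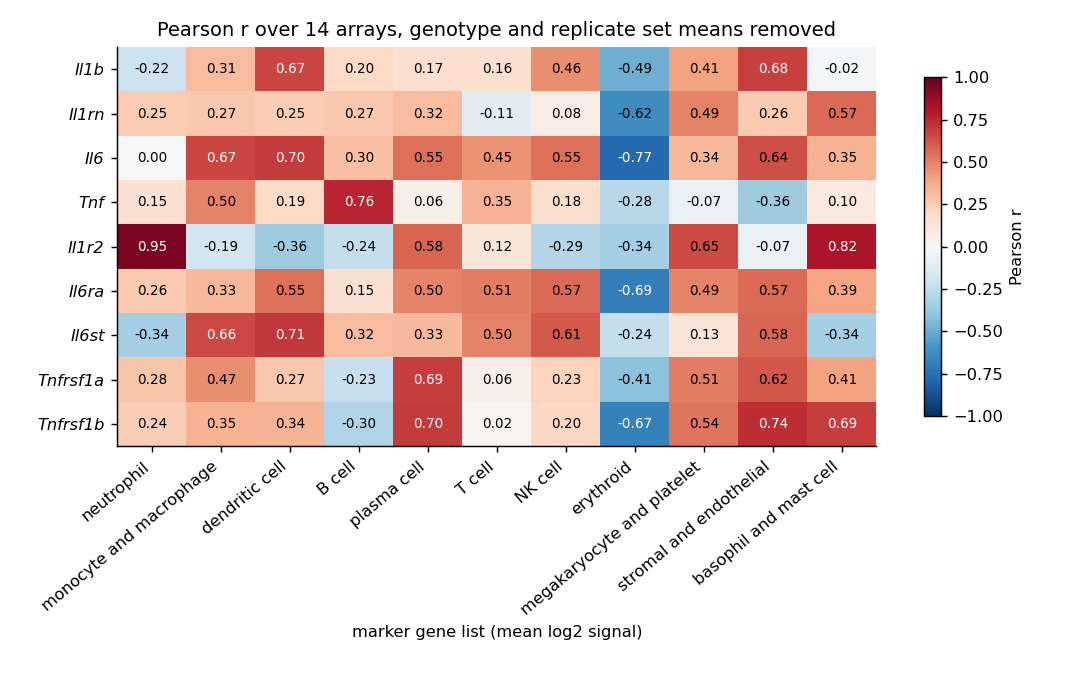
Pearson r over 14 arrays between each of the 9 genes (vertical axis) and the mean log2 signal of 11 lists of cell type markers (horizontal axis), after genotype and replicate set means were removed (red above 0, blue below 0). The highest value is that of Il1r2 with neutrophil markers (0.95), and Il6 with erythroid markers (-0.77) is the lowest.

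The other genes of these pathways passed the test about as often as genes at large. Of 111 pathway genes outside the 10, 104 were tested, 2 were higher and 1 was lower in Sting gt/gt at an unadjusted p under 0.05 (2.88%, against 3.48% of all genes), and their median difference was 0.02, as over all genes. Of 21 genes of TNF receptor signalling, only Fadd, the adaptor of death receptors, rose, by 0.21 (SE 0.09; limma, unadjusted p = 0.033, adjusted p = 0.9998). Of 13 immediate early and stress genes, Ier3 rose by 0.28 (SE 0.11, unadjusted p = 0.020) and the heat shock gene Hspa1b fell by 0.59 (SE 0.25, unadjusted p = 0.030). By replicate set, Fadd differed by 0.03 in the lower-numbered replicates (limma, unadjusted p = 0.842) and by 0.34 in the higher-numbered ones (unadjusted p = 0.0066). Its rise thus came mostly from the higher-numbered set, where slide and genotype cannot be told apart. Ier3 gave 0.14 and 0.38 in the same order, and Hspa1b -0.87 and -0.38. None of the 9 other IL-1 family genes tested, the 15 genes of IL-1 signalling, the 11 other gp130 cytokines and receptors, the 14 genes of IL-6 signalling, the 12 relatives of TNF and its receptors or the 9 mRNA decay factors passed. List medians lay between -0.03 for IL-6 signalling and 0.08 for the other IL-1 family genes. Among the markers of other cells, Tfrc, the transferrin receptor of erythroid cells, fell by 0.52 (SE 0.24, unadjusted p = 0.042) over the 14 arrays. Tfrc differed by -0.34 in the lower-numbered replicate set and by -0.66 in the higher-numbered set.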

How the data were processed

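Splenocyte RNA of 7 WT and 7 Sting gt/gt mice was measured on 14 arrays of 62976 spots. Per the labels, the authors obtained the deposited intensity values in Agilent Feature Extraction 11.0.1.1, in which spots are background-corrected but arrays are not scaled to each other. The deposited series table holds log2 values per probe and array that correlated with the log2 intensity of the same array at 0.997 to 0.999, and its normalization is not given in the sources used here.

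Groups were taken from the sample titles. The intensity was put on a log2 scale, each array's 75th percentile was subtracted, outlier-flagged spots were left out (11 values of tested genes) and spots of a probe were averaged. Probes were named by accession through RefSeq, with 32989 probes (58.3%) matched to a symbol. A probe was tested if it stood well above background on 7 or more arrays (31766 probes), and each gene was read from its brightest such probe (24908 genes, 14725 with a symbol). Genotypes were compared with limma 3.58.1 (lmFit, eBayes) in R 4.3.3, with a threshold of unadjusted p under 0.05, as the study used for its arrays, and Benjamini-Hochberg adjustment over all genes. Further probes of a gene were taken from the same fits over all 31766 tested probes. Single genes were also compared by two-sided exact permutation tests. The limma fits were tested on simulated data. The number of arrays limits the precision. Replicates are separate mice as the labels number them.

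The 10 genes, the gene lists and the comparisons were chosen with earlier results of these data known. Named are all 10 genes with all their probes, list genes past the threshold, Sting1 and the 3 genes with a symbol most like each of the 9 tested. Markers of the plasma cell and erythroid lists are named where they describe the mean of their list. One list gene past the threshold is not reported here. Across genes, group-centred values of WT and Sting gt/gt arrays sharing a number correlated at 0.16 to 0.53, but at -0.41 to 0.25 once replicate set means were removed. The likeness of arrays sharing a number thus went mostly with the replicate set, in which scan day and slides also differ. Alternatives covered the scaling, normexp (offset 50, on spot medians), the filter, the probes, the outlier flags, the series table, the replicate number, replicate set and slide, array weights, the methods' t-test and the Mann-Whitney test, and each array left out. The series table within replicate sets or with a set term, and leaving arrays out within sets, were added after the data were seen. Promoter windows came from RefSeq (GRCm38.p6), 12 windows for the 10 genes. Python 3.11.15, pandas 2.3.3, numpy 2.4.6, scipy 1.17.1 and matplotlib 3.10.9 made the tables and figures.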

Additional observations from a re-analysis of the deposited data

Results flagged for a closer look

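Il1a in Sting gt/gt replicate 7 lay at -3.52, far above the other 6 Sting gt/gt arrays of this gene, which lay between -5.95 and -5.26 and were not well above background. This was 1 of 20 groups checked for an array far from the others, and chance gives about 1 in 20. The genotype difference of Tnf was -0.83 lower in replicates 4 to 7 than in replicates 1 to 3 (limma interaction, unadjusted p = 0.023, adjusted p = 0.199), with Sting gt/gt higher in all 3 arrays of replicates 1 to 3. That of Tnfrsf1b was 0.67 higher in replicates 4 to 7 (unadjusted p = 0.0034, adjusted p = 0.093), with all 4 Sting gt/gt arrays above all 4 WT arrays there. Scan day goes with the replicate set for both, and its part was not tested. Within replicates 4 to 7, slide and genotype cannot be told apart.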

How the results depend on the processing

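None of the 9 genes passed the unadjusted threshold over 14 arrays as reported, nor with median centring, quantile normalization, no scaling, normexp, no filter, detection on all arrays, the mean of all probes, outlier flags kept, slide as a random block, the methods' t-test or the exact Mann-Whitney test. With the replicate block 0 passed (5.68% of all genes), so the block changed no call. The series table gave 2 (Il1rn and Tnfrsf1b, with 7.74% of all genes), replicate set as a term 1 (Tnfrsf1b, with 7.27%), array weights 2 (Il1rn and Tnfrsf1b, with 17.3% of all genes), and slide as a fixed block 1 (3.6%). That one was Il6 at -0.58, from the 5 arrays of replicates 1 to 3 on slides with both genotypes, all with Il6 not well above background. Leaving out 1 array gave 0 to 1, namely Tnfrsf1b at 0.38 without Sting gt/gt replicate 1 and 0.38 without replicate 2. Replicates 1 to 3 alone gave 1 and replicates 4 to 7 alone 2, and in the series table these were 1 (3.57% of all genes) and 3 (Il1rn, Il6 and Tnfrsf1b, with 23.7%), and 1 with a set term (Il1rn, with 7.26%). Over all genes, calls numbered 868 as reported, 1928 in the series table, 1812 with a set term, 1416 with the replicate block, 445 with slide as a random block, 4310 with array weights, 5805 in replicates 4 to 7, and 496 to 1967 with 1 array left out.

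Of the members' differences under all alternatives, 260 kept direction and side of the threshold, 15 passed it newly and 39 changed sign. For every gene, the difference with slide fixed rests only on the arrays of replicates 1 to 3 on slides with both genotypes. Sign changes were found for Il6 (-0.0061 with no scaling, -0.28 with slide as a random block, -0.22 in replicates 1 to 3 and -0.29 there in the series table, where WT was not well above background; -0.13 to 0.30 with 1 array left out), Tnf (-0.11 in replicates 4 to 7, -0.074 there in the series table), Il1r2 (-0.33 with slide fixed, -0.0084 with slide random, -0.25 in replicates 1 to 3, -0.22 there in the series table; -0.024 to 0.24 with 1 array left out), Il6ra (0.0028 with normexp, 0.057 with all probes, 0.0031 with array weights, 0.071 in replicates 4 to 7, 0.0042 there in the series table; -0.068 to 0.050 with 1 array left out), Il6st (-0.0097 in replicates 4 to 7 of the series table; -0.038 to 0.18 with 1 array left out), Tnfrsf1a (-0.019 with slide fixed, -0.054 in replicates 1 to 3, -0.0101 there in the series table) and Tnfrsf1b (-0.19 with slide fixed, -0.10 in replicates 1 to 3, -0.11 there in the series table). With 1 array left out Il1b ran from 0.09 to 0.40, Il1rn from 0.15 to 0.34, Tnf from 0.13 to 0.41, Tnfrsf1a from 0.05 to 0.16 and Tnfrsf1b from 0.21 to 0.38. Between replicate sets, the 6 genes that differed became 0 in the series table, where Il1rn (-0.0498) and Tnf (-0.029) changed sign. With median centring the number stayed 6, but Il1r2 missed the threshold (-0.54, adjusted p = 0.060) and Il6ra passed it (0.39, adjusted p = 0.019). The cause was not tested. Signal close to background limits Il1a and Il6.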
